A study of Equus caballus with 12 samples.

Results

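The genes described here are the 150 whose read counts varied least between heart, lung and liver of 4 horses (H, L and LR in the names of comparisons), out of 31217 genes listed. They were chosen by the spread of their counts in these same libraries. Counts of each library were divided by a size factor, the median over 8968 genes (those with at least 10 counts in all 12 libraries) of the gene's count relative to its geometric mean. Of the genes whose median scaled count was at least 500 in each of the 3 tissues, the 150 with the lowest coefficient of variation (CV, the SD divided by the mean) over the 12 libraries were taken. The minimum left 1396 eligible genes, 4.47% of those listed, so that the 150 most stable genes made up 10.7% of the eligible genes and 0.481% of the list. Since the CV of these same libraries chose them, their low spread is a description and not a finding, and no test of it is given.

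The samples were heart, lung and liver tissue of 4 Polish cold-blooded stallions, healthy and between 1 and 2 years of age, collected at slaughter (the lung from its right caudal lobe), with 1 RNA-seq library per tissue and horse. Replicate numbers are horse numbers, so replicate 1 of each tissue came from the same animal. The study asked which genes differ between the tissues, in the comparisons lung against heart (LvsH), lung against liver (LvsLR) and heart against liver (HvsLR). The libraries were made from whole tissue, in which fewer cells of a type and less RNA per cell cannot be told apart.

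Genes that every cell uses, for tasks such as transcription, translation, protein turnover and energy supply, are often called housekeeping genes, and many of them are transcribed at similar levels in different organs. Such genes serve as internal references in qPCR, where the level of a target is given relative to them, and in RNA-seq, where scaling methods assume that most genes, or a core of them, do not differ between samples. Whether a gene appears stable therefore depends on what its count is divided by. The deposited files give Ensembl identifiers with no gene names, and 0 of the identifiers were found in the reference table used here. The functions of the 150 genes, their sequences and the markers of the labelled tissues were for this reason not analysed here.

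The reads counted in genes numbered between 4345694 (liver replicate 4) and 23474239 (heart replicate 1) per library, and no library duplicated another. Heart replicate 2 stood apart from the other heart libraries in liver transcripts. A set of 176 genes at least 100 times higher in liver than in lung, and at a CPM (counts scaled to a common library total) of 100 or more in liver, took 1.24% of its gene counts, whereas the set took between 0.0847% and 0.164% in the other 3 heart libraries and between 43.1% and 50.3% in the liver libraries. None of the 176 genes was among the 150, and values without heart replicate 2 are given beside the results that changed with it.

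The CV of the 150 genes ran from 5.84% to 17.3%, with a median of 13.7% and quartiles of 11.8% and 15.5%. Over all 1396 eligible genes the median CV was 34.3% and the highest 203%. The boundary did not mark a gap. The last gene inside, ENSECAG00000020600, had a CV of 17.349% and the first outside, ENSECAG00000013244, a CV of 17.358%. The spread that random sampling of reads alone would give had a median of 3.69% over the 150 genes, and its largest value was 4.97%. After subtraction of that counting variance the median CV was 13.1%, so that counting error made up little of the spread. Raw counts of the 150 genes ranged from 105 to 32465 per library.

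**Figure D1:**
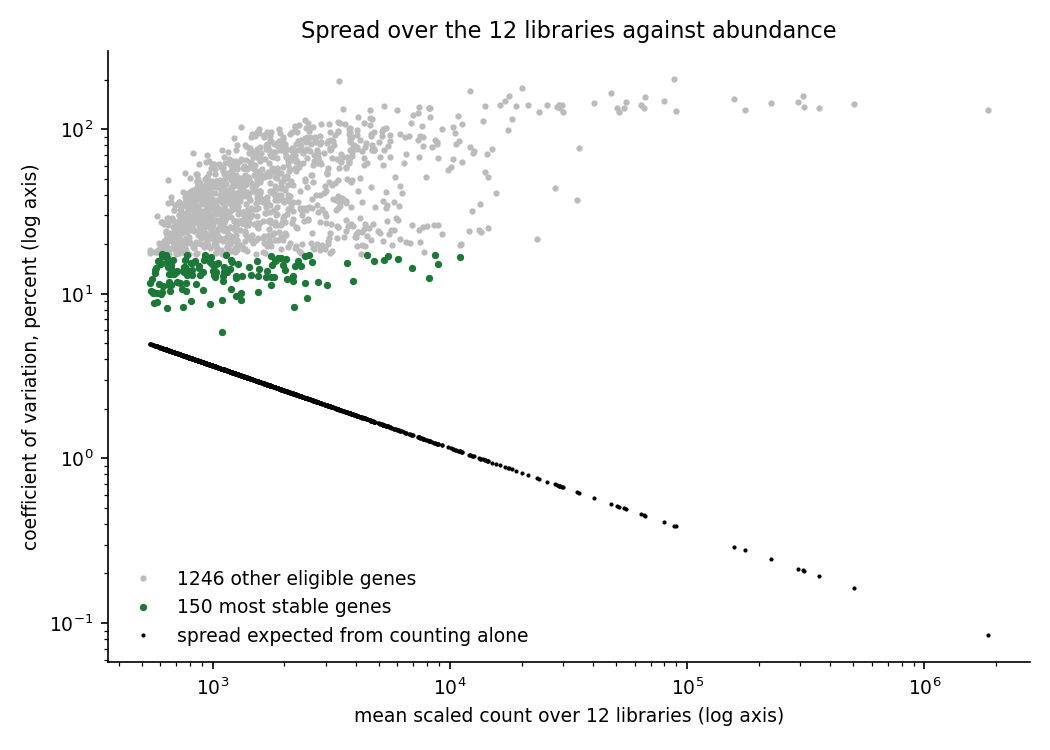
Coefficient of variation over the 12 libraries (percent, log axis) against the mean scaled count (log axis) for the 150 most stable genes (green) and the 1246 other eligible genes (grey), with the spread expected from counting alone in black. The green points lie between 5.84% and 17.3%, above the black ones at every abundance.

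How the 150 genes fell along the range of abundance was in large part set by the rule, since a gene with a mean near 500 and a median of at least 500 in each tissue can differ little between tissues. Of the 158 eligible genes with a mean scaled count between 500 and 750, 47 were among them (29.7%), compared with 30 of 262 between 750 and 1000, 45 of 522 between 1000 and 2000, 20 of 307 between 2000 and 5000 and 8 of 147 above 5000 (5.44%). The median CV of the eligible genes rose over the same bins from 19.3% to 79.3%.

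Among the 12 libraries, the highest scaled count of a gene exceeded its lowest by a ratio with a median of 1.57 (range 1.25 to 2.02), compared with a median of 2.91 over the eligible genes. For 48 of the 150 genes all libraries lay within a ratio of 1.5, and for 149 within a ratio of 2. Over the eligible genes, the 150 included, these numbers were 48 (3.44%) and 301 (21.6%). The highest and lowest of the 3 tissue means of the 150 genes differed by a median ratio of 1.20, and by at most 1.42. For all 150 genes the tissue means lay within a ratio of 1.5, as they did for 408 (29.2%) of the eligible genes. The size factors of the rule centre the tissues on each other. Under them the highest mean was in lung for 55 of the 150 genes, in liver for 53 and in heart for 42. The lowest was in lung for 51, in heart for 50 and in liver for 49. Over the eligible genes the highest was in lung for 393, in liver for 530 and in heart for 473. Their lowest was in lung for 533, in heart for 425 and in liver for 438. Between the horse means of the 150 genes the median ratio was 1.17 and the largest 1.41.

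The most stable gene, ENSECAG00000016681, had scaled counts of 1114, 1077, 1058 and 1050 in heart replicates 1 to 4. Its values were 1052, 1146, 1189 and 1144 in lung, and 1104, 952, 1163 and 1097 in liver. The 3 tissues overlapped, with means of 1075 (SD = 28.4), 1133 (SD = 57.9) and 1079 (SD = 89.7), and its lowest value, in liver replicate 2, was 1.25 times below its highest. It had the lowest CV of all eligible genes also under the trimmed mean of M-values (TMM), at 6.24%, and under upper-quartile scaling, at 6.55%. Divided by library totals it had a CV of 60.2% and rank 688. Its CV of 5.84% under the rule compares with 3.49% from counting alone.

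ENSECAG00000006400, the second in rank with a CV of 8.20%, had scaled counts of 657, 627, 538 and 658 in heart replicates 1 to 4. In lung it had 573, 626, 687 and 646, and in liver 601, 715, 704 and 676. Its ranges overlapped between all tissues, and its lowest value was that of heart replicate 3, one of the shallowest libraries, in which it rested on 147 reads.

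The gene with the highest median scaled count, ENSECAG00000015816, had 9427, 11550, 12656 and 9304 in heart replicates 1 to 4. Its values were 12347, 10105, 9809 and 9727 in lung and 14616, 13229, 10283 and 8825 in liver. Its tissue means lay within a ratio of 1.12, and both its highest and its lowest value were in liver. ENSECAG00000000580 had the lowest median, with tissue means of 535 (SD = 68.3) in heart, 520 (SD = 32.7) in lung and 569 (SD = 84.9) in liver (n = 4 each). Scaled counts grow with the length of a transcript, so these levels do not rank the genes by their number of transcripts.

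The 2 genes with the largest ratio between tissue means were picked for that ratio, and under the size factors of the rule 1 tissue of each stood apart from the others. ENSECAG00000016281 had 787, 747, 761 and 763 in lung replicates 1 to 4. It had 568, 539, 465 and 580 in heart and 656, 557, 669 and 589 in liver. All 4 lung libraries exceeded every heart and liver library, and the mean of lung was 1.42 times that of heart. ENSECAG00000025104 had 3733, 3344, 3653 and 3975 in heart replicates 1 to 4. It had 4973, 4343, 4170 and 4524 in lung and 5640, 4660, 4658 and 5889 in liver. Every heart library was below every other library, and the ratio of liver to heart means was also 1.42. With TMM, in the edgeR fit described further on, the first had a log2 fold change of 0.32 in LvsH and the second of -0.45 in HvsLR, each with an adjusted p below 0.05, and neither gene was called in the remaining comparisons. The CV of these genes over the 12 libraries was 16.5% and 17.3%, near the end of the list.

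The 2 genes with the largest sum of squares between horses were picked for it, and the test of horses in the edgeR fit with a replicate block called neither. ENSECAG00000020885 was highest in horse 1 in lung and liver, with 7365 and 7070, where the other 3 horses had 5174 to 5641 and 4634 to 4956. In heart, horse 1 had 5302 and horse 4 the highest value, 5805. ENSECAG00000015242 had its highest value in each tissue in horse 2, with 3269 in heart, 2850 in lung and 2855 in liver. Its means were 2991 in horse 2 and 2128 in horse 4.

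**Figure D2:**
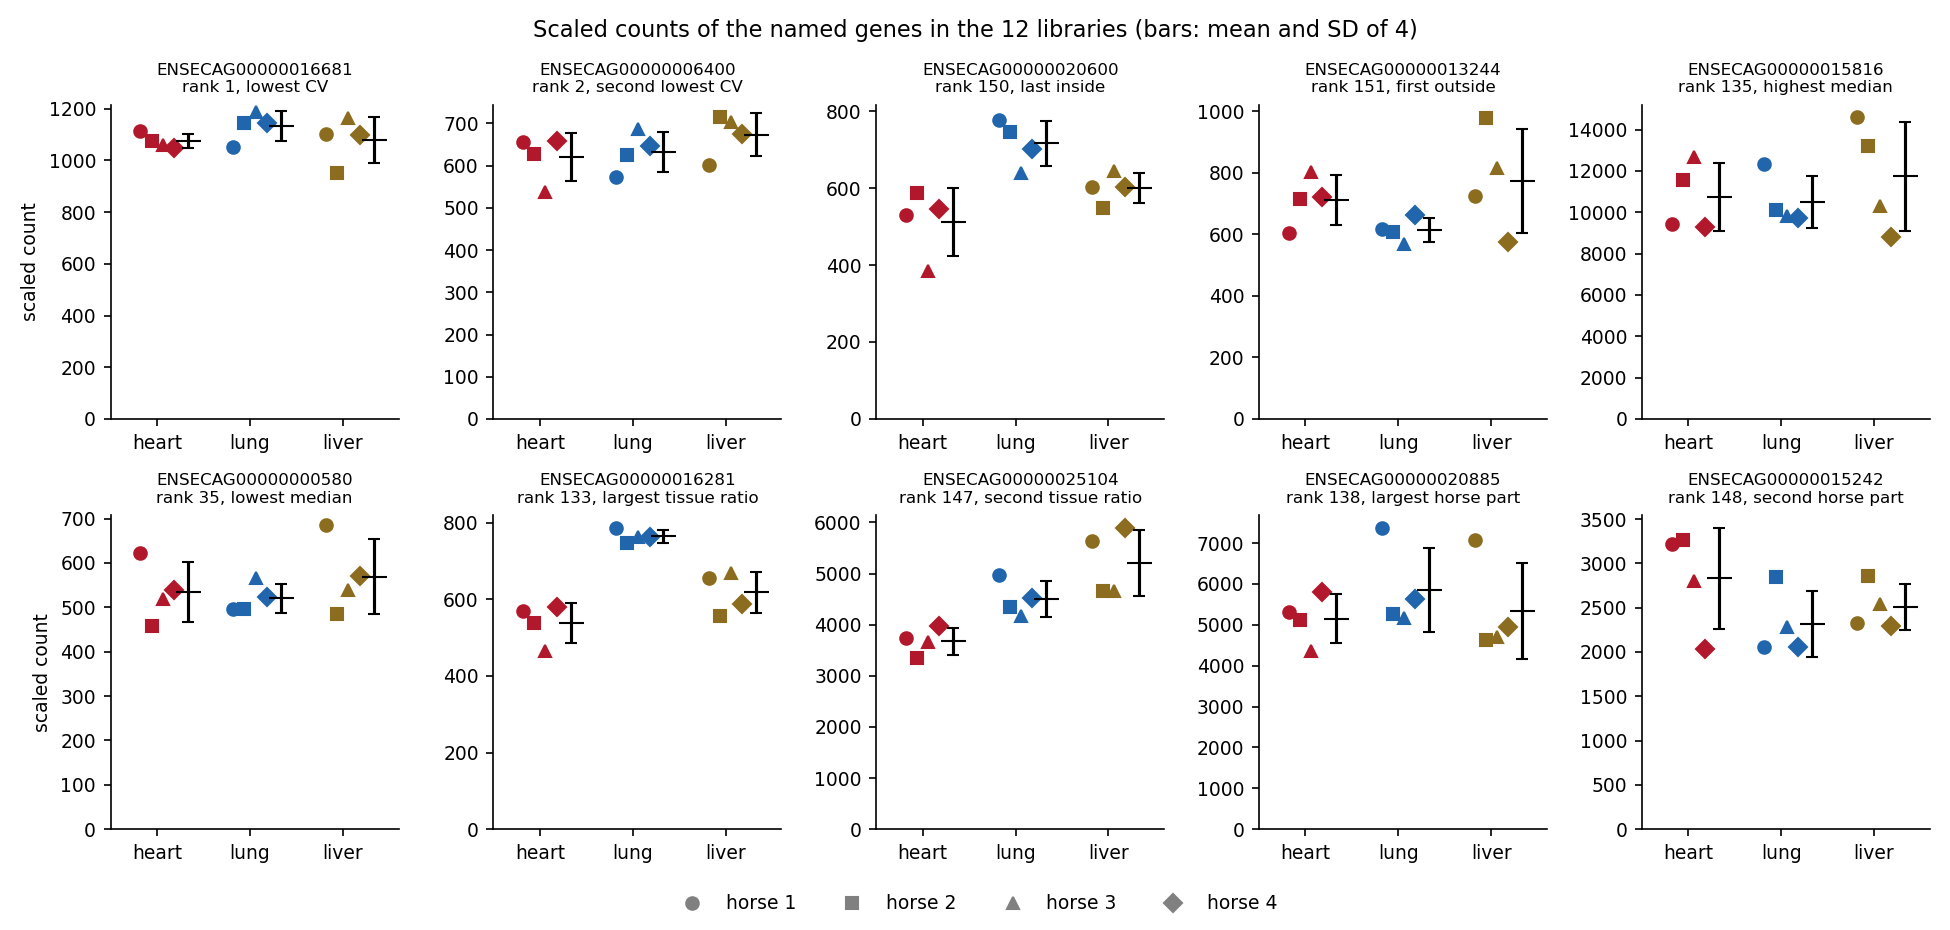
Scaled counts (linear axis from 0) of the 9 named members and of the first gene outside the list in the 12 libraries, by tissue (colour) and horse (symbol), with the mean and SD of 4 libraries in black. The values of ENSECAG00000016681 lie between 952 and 1189, whereas the 4 lung values of ENSECAG00000016281 lie above all others.

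The sum of squares of each gene's log2 scaled counts was divided into a part between tissues, a part between horses and a remainder. For the 150 genes the median parts were 39.7%, 20.3% and 34.6%, and for all eligible genes they were 78.5%, 8.07% and 10.7%. Degrees of freedom alone would divide pure noise into 18.2%, 27.3% and 54.5%. The tissue part was the largest for 72 of the 150 genes, the remainder for 55 and the horse part for 23. Over all eligible genes these numbers were 1153, 120 and 123. Within a tissue, the 150 genes had a median CV of 10.7% in heart, 9.33% in lung and 10.9% in liver, compared with 17.0%, 12.1% and 16.1% for all eligible genes. These values share the libraries that chose the genes.

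Few pairs of the members had a strong correlation. Of the 11175 pairs among them, 249 (2.23%) had a correlation of log2 scaled counts above 0.7 over the 12 libraries, compared with 13.2% of the pairs of the other eligible genes. Their first principal component carried 21.9% of their variance and that of the other eligible genes 46.5%. A choice by low CV in these 12 libraries limits the differences between tissues that the members can share. These values are therefore descriptions, over libraries that also share the size factors, and nothing is read from them.

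A measure that the choice did not use was had by leaving out 1 horse, choosing 150 genes in the 9 libraries of the others and measuring them in the 3 tissues of the horse left out. The median CV of the chosen genes there was 14.6%, 13.4%, 14.6% and 13.6% for horses 1 to 4. That of the other eligible genes was 41.7%, 36.1%, 41.1% and 37.6%. The mean of these medians was 14.1% (SD = 0.655) for the chosen genes and 39.1% (SD = 2.70) for the rest, n = 4 horses, and the chosen genes were lower in 4 of 4 horses. In the horse left out, 119, 119, 102 and 126 of the 150 chosen genes had 3 tissue values within a ratio of 1.5, whereas 17.4%, 22.0%, 13.8% and 19.9% of the other eligible genes did. The exact order was less repeatable. Of each 150 chosen, 68, 63, 78 and 65 were among the 150 of lowest CV in the horse left out. In these choices 150 genes made up 10.65% to 11.05% of the eligible genes.

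**Figure D3:**
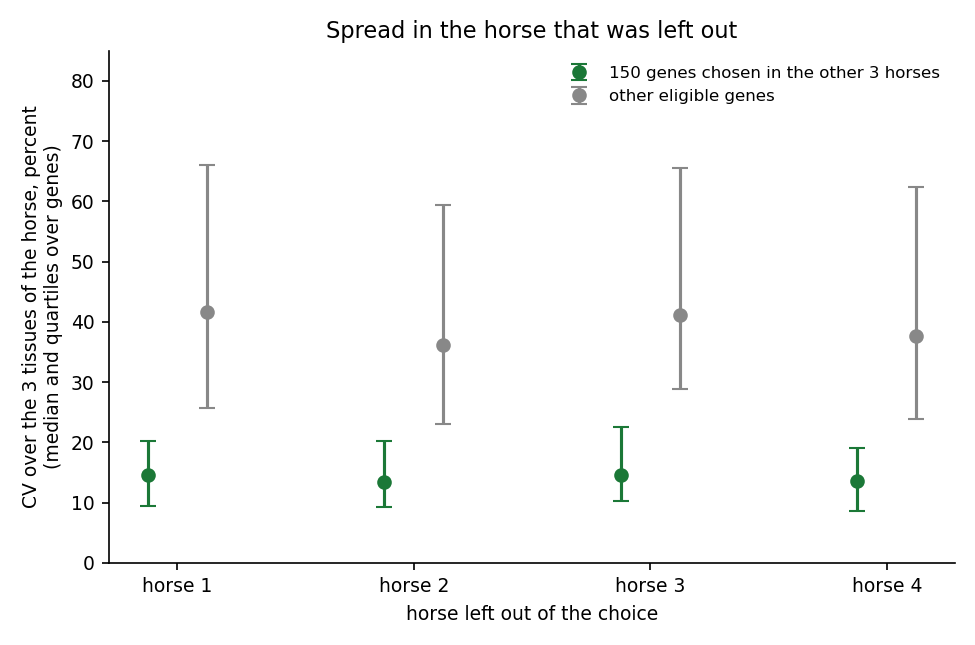
CV over the 3 tissues of the horse left out of the choice (percent; points are medians and bars quartiles over genes), for the 150 genes chosen in the other 3 horses (green) and the other eligible genes (grey). In all 4 horses the upper quartile of the chosen genes, at most 22.5%, lay below the lower quartile of the others.

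In edgeR's quasi-likelihood test across 15436 genes, all 150 passed the filter on low counts and none was a DEG by the study's thresholds (adjusted p below 0.05, log2 fold change of 1 or more in either direction) in LvsH, LvsLR or HvsLR. The share of all genes tested that were DEGs was 45.2%, 50.4% and 48.4%. With the adjusted p alone, 30, 28 and 17 of the 150 were called, beside 61.2%, 66.1% and 62.7% of all genes. An unadjusted p below 0.05 was had by 38, 34 and 22 of the 150, beside 65.3%, 69.2% and 66.1% of all genes. Most calls that involved lung were lower there, 29 of 30 in LvsH and 27 of 28 in LvsLR. Over all genes tested, 4631 of 9444 calls were lower in lung in LvsH and 4333 of 10208 in LvsLR, 30.0% and 28.1% of the genes. In HvsLR 11 of the 17 calls were higher in heart, beside 5252 of 9678 calls over all genes, 34.0% of the genes. The 3 comparisons share libraries, and the rule used each of them, so nothing is read from these counts.

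In every comparison the direction of these calls moved with the scaling. In LvsH and LvsLR most calls were lower in lung under TMM, under edgeR's median-of-ratios factors and in DESeq2. With library totals in edgeR, all 150 genes were called in LvsH and in LvsLR, and all were higher in lung. Of all genes tested, 79.4% and 78.0% were called higher in lung with these totals. TMM, used in the test, placed the median of the 150 genes at a log2 fold change of -0.17 in LvsH, -0.12 in LvsLR and 0.04 in HvsLR, while under the size factors of the rule the median ratios were 1.01, 1.00 and 0.997. The median-of-ratios factors in edgeR came from tested genes with at least 1 count in every library, and no fit used the size factors of the rule. With those edgeR factors, 19 of 22 calls were lower in lung in LvsH and 31 of 32 in LvsLR. In HvsLR 1 of 14 was higher in heart. Of all genes, 61.3%, 66.0% and 62.8% were called. DESeq2 called 32, 40 and 26 of the genes, with 28 and 39 lower in lung and 5 of the last higher in heart, beside 55.2%, 57.8% and 58.4% of all genes. Without liver replicate 4, LvsLR gave 58 calls beside 63.1% of all genes, and HvsLR gave 17 beside 60.0%, with 0 higher in heart. Without heart replicate 2, HvsLR gave 11 beside 60.6%.

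The 95% intervals of the fitted log2 fold changes lay within 1 of 0 in all 3 comparisons for all 150 genes, and within 0.5 for 28 of them. Over the 1396 eligible genes, the 150 included, these numbers were 365 (26.1%) and 32 (2.29%). Of the 150, 96 had an adjusted p of at least 0.05 in every comparison, as did 257 (18.4%) of the eligible genes, which does not show that they were equal. Scaled counts did not overlap between the 4 and 4 libraries for 31 of the genes in LvsH, 28 in LvsLR and 25 in HvsLR, beside 58.0%, 63.1% and 54.6% of all genes tested. With the horse as a replicate block, the test of horses called 0 of the 150 (0 also at an unadjusted p below 0.05) and 1.06% of all genes (10.2% at an unadjusted p below 0.05).

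The 150 genes were not stable relative to the library total. As a share of all gene counts, the 150 genes took 1.12% (SD = 0.0729) in heart, 3.43% (SD = 0.0918) in lung and 1.31% (SD = 0.106) in liver, n = 4 each. The lung libraries ranged from 3.33% to 3.52%, and the heart and liver libraries from 1.05% to 1.41%. When the 10 most abundant genes of each tissue, 28 genes in all and none of them among the 150, were left out of the total, the shares were 2.39% (SD = 0.160), 3.72% (SD = 0.0999) and 1.92% (SD = 0.0954), and heart then lay above liver.

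**Figure D4:**
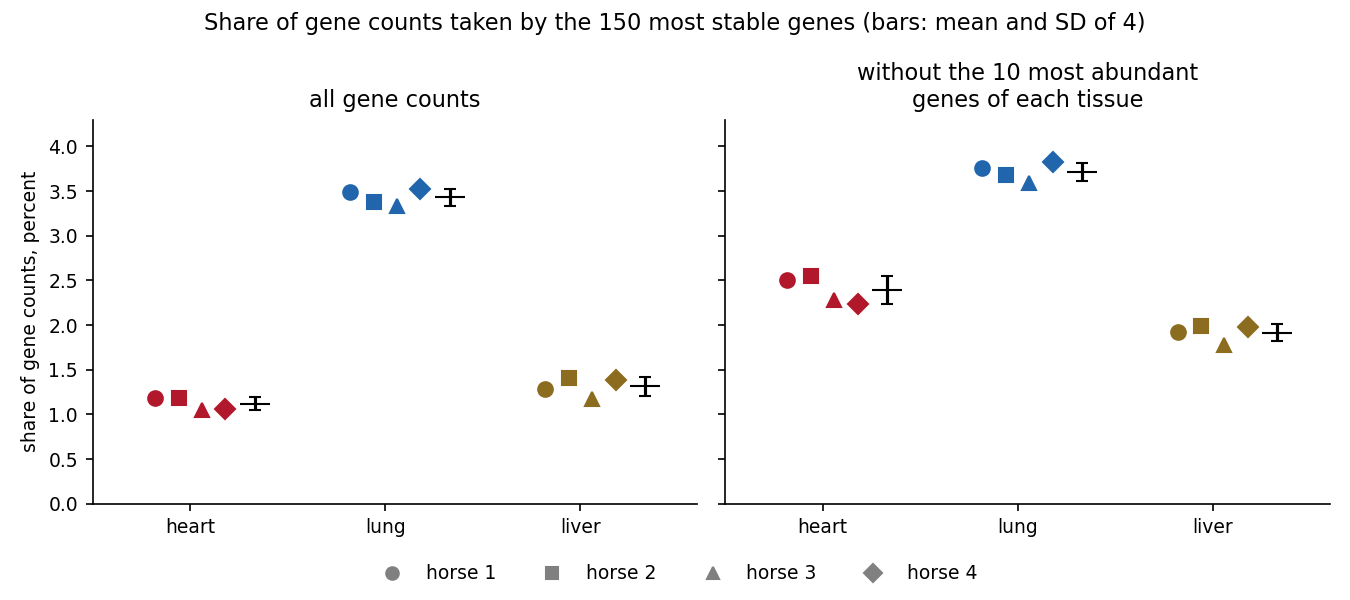
Share of gene counts (percent) taken by the 150 genes in each library, by tissue (colour) and horse (symbol), with the mean and SD of 4 libraries, out of all gene counts (left) and without the 10 most abundant genes of each tissue (right). The lung libraries are the highest in both panels, and the order of heart and liver turns between them.

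Divided by library totals, as CPM values are, every one of the 150 genes was higher in lung than in heart, by a median ratio of 3.17 (2.30 to 4.44), and higher in lung than in liver, by a median ratio of 2.69 (1.96 to 3.70). Heart over liver had a median ratio of 0.850, with 131 genes below 1. The same shift was present in the eligible genes as a whole, with median ratios of 2.99 in LvsH (1286 of 1396 above 1), 2.46 in LvsLR (1208 above 1) and 0.855 in HvsLR. The median CV by library totals was 58.4% for the 150 genes and 60.6% for all eligible genes. Under TMM that of the 150 was 14.3% and under upper-quartile scaling 13.7%. Size factors from genes with at least 1 count in every library gave 14.3%, those from genes with at least 100 counts 16.8%, and those from the other eligible genes 14.5%.

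The list depended on the scaling as well. Lists of 150 chosen in the same way shared 131 genes with it under upper-quartile scaling, 116 under TMM and 0 under library totals, where 100 of the 150 genes still passed the minimum. The 150 genes that library totals chose had a median CV of 25.5% by totals and of 41.9% by the size factors of the rule. A measure free of size factors, the mean SD of a gene's log2 ratio to every other eligible gene, shared 115 genes and held all 50 of the lowest CV. The SD of log2 scaled counts shared 140 and the CV of the 3 tissue means 104. Size factors from genes with at least 100 counts shared 67. A minimum of 100 in place of 500 admitted 6293 genes and shared 65, and a minimum of 1000 left 498 genes and shared 62.

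**Figure D5:**
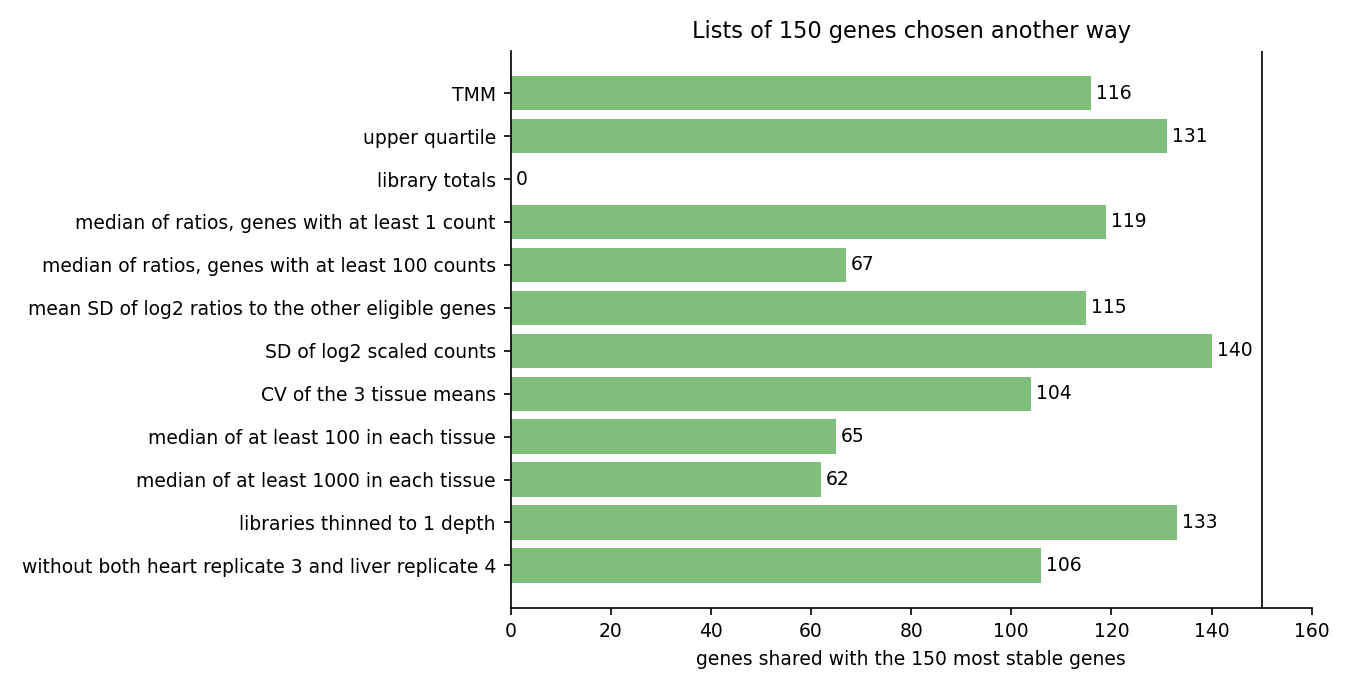
Number of genes that lists of 150 chosen with another scaling, measure, minimum or depth shared with the 150 most stable genes (bars from 0; the line marks 150). The number ran from 140 for the SD of log2 scaled counts to 0 for library totals.

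Libraries also mattered, within narrower bounds. Leaving out 1 library at a time, 116 genes were chosen again without heart replicate 3, 127 without liver replicate 4, 134 without heart replicate 2 and up to 142 without another. In all 12 of these choices 97 genes recurred. The TMM, upper-quartile, log2-ratio and log2-SD lists held 83 of the 150 in common, and 75 genes were in both of these sets. None of the 75 was in the list by library totals.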

How the data were processed

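RNA from 3 tissues of 4 horses was sequenced as 12 libraries (TruSeq RNA kit, which does not mark strand). The authors ran FastQC on the reads, mapped them to EquCab3.0 with TopHat2 and counted them with HTSeq, as the submitters' processing notes and the paper's methods state. The deposited values are raw counts per gene without normalization. Annotation release and strand setting are not given in the sources used here. Overlapping and antisense genes therefore cannot be told apart, and genes with near-identical copies are uncertain. HTSeq summary rows were left out. They included reads outside genes (16.8% to 30.2% per library), ambiguous reads (1.78% to 7.29%) and reads without a unique alignment (5.17% to 10.8%). The shares of ambiguous reads and of reads without a unique alignment were higher in every heart library than in any other.

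Members and lists were chosen with earlier results of these data known. Groups came from the labelled tissue. Size factors, CVs and lists were computed in Python 3.11.15 with pandas 2.3.3. Tests used R 4.3.3 and edgeR 4.0.16 (TMM, default filter by tissue, robust quasi-likelihood fit of all 12 libraries, Benjamini-Hochberg adjustment), with DESeq2 1.42.0, other scalings, no filter, a horse block and left-out libraries as alternatives. Named genes were the 2 of lowest CV, those at ranks 150 and 151, the highest and lowest median, the 2 largest tissue ratios and the 2 largest sums of squares between horses. The planned lists of named genes and tissue markers needed symbols and were not run. The edgeR fit was also run on simulated counts with known changes in lung. Counting spread covers sampling of reads only, since reads carried no molecular identifiers.

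The horse numbers pair the libraries by the labels, as 1 number is 1 animal. Deviations from tissue means correlated across genes by 0.157 on average (0.0867 to 0.372) in the 12 pairs of libraries of the same horse. In the 36 pairs of different horses the mean was -0.0521 (-0.249 to 0.128), and the ranges overlapped. Over the members alone the means were 0.112 (-0.207 to 0.502) and -0.0365 (-0.397 to 0.37). Deviations from a tissue mean cancel over its horses, so the negative mean of different horses gives no separate information on the pairing.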

Additional observations from a re-analysis of the deposited data

Results flagged for a closer look

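For the named genes and the shares of counts, the highest and lowest of the 4 libraries of each tissue were examined for a gap to the others that exceeded Dixon's 95% limit. ENSECAG00000015816 stood out in lung, where replicate 1 had a scaled count of 12347 and the other 3 libraries 9727 to 10105. ENSECAG00000020885 stood out in liver, where replicate 1 had 7070 and the others 4634 to 4956. Over all 150 genes and 3 tissues, 21 of 450 groups (4.67%) had such a library, and 8 of them were lung replicate 1. The genes were chosen for low spread in these libraries, and the share was not computed for other genes. Nothing is therefore read from it.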

How the results depend on the processing

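The median CV of 13.7% moved to 14.3% with TMM and 58.4% with library totals. It moved to 14.3% and 16.8% with size factors from genes of at least 1 and 100 counts. With factors from other eligible genes it was 14.5%, and with thinned libraries also 14.5%. Thinning left between 1748200 and 6146700 gene counts per library, so that library totals still differed. Without 1 library or horse the median CV ran from 13.4% to 14.1%. The list shared 0 genes under library totals, 67 with factors from genes of at least 100 counts, and 65 and 62 with minimums of 100 and 1000. Without 1 library or horse it shared 113 to 142. Without heart replicate 3 and liver replicate 4 together, a choice made after the data were seen, it shared 106, and the median CV was 13.6%. In the left-out horse the mean CV moved from 14.1% to 15.1% with TMM, 27.4% with totals, 12.8% for 50 genes and 17.3% for 300. The tissue part moved to 43.5% with TMM and 95.8% with totals, and the horse part to 1.47% with totals. Without 1 library the tissue part ran from 37.7% to 42.99% and the horse part from 20.6% to 26.5%, and without 1 horse from 40.7% to 46.5% and from 16.3% to 21.3%. Without the most abundant genes the members' shares came to 2.39% (heart), 3.72% (lung) and 1.92% (liver). Leaving out a library gave means of 1.1% to 1.14% in heart, 3.40% to 3.46% in lung and 1.28% to 1.36% in liver.

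Calls in LvsH, LvsLR and HvsLR were 150, 150 and 37 with library totals in edgeR, of which 150, 148 and 0 were DEGs, beside 86.4%, 87.1% and 62.0% of all genes called and 78.7%, 77.3% and 48.3% DEGs. They were 13, 11 and 8 without a filter on low counts, beside 43.9%, 46.5% and 44.4%. DESeq2 gave 26 in HvsLR, beside 58.4%. Without 1 library the calls ran from 18 to 34, 15 to 58 and 8 to 17, with 0 DEGs. In the same fits 56.5% to 61.3%, 60.7% to 66.9% and 57.8% to 62.3% of all genes were called. Between 43.5% and 50.8% of all genes were DEGs. With the replicate block, the paired fit called 25, 27 and 16, beside 62.2%, 67.2% and 63.4%. The cause of these changes was not tested. The shallowest libraries, heart replicate 3 and liver replicate 4, limit the precision of the CV at low counts.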
